A study of Rattus norvegicus with 6 samples.

Results

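Gad1, Gad2, Slc32a1 and Slc12a5 are 4 genes that inhibitory transmission by GABA depends on, and they were taken by their Ensembl gene IDs from a table of 26402 IDs. The IDs are ENSRNOG00000000007 for Gad1, ENSRNOG00000018200 for Gad2, ENSRNOG00000015393 for Slc32a1 and ENSRNOG00000018111 for Slc12a5. The symbols come from the definition of the set, because the tables hold IDs only. All 4 were measured in every library and all 4 passed the filter on low values, a mean of at least 1 FPKM (a fragment count divided by transcript length and library total) that 12351 IDs met.

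Polyadenylated RNA was taken at postnatal day 20 from the superficial superior colliculus, where retinal axons end in the midbrain, of Sprague Dawley rats. In the closed group the eyelids had been glued shut between postnatal days 14 and 20, whereas open-group rats had open eyes for that period. Each group held 3 libraries, 1 from each of the labelled batches A, B and C. The labels do not say what a batch is or how many animals went into a library, so p-values measure the spread between these libraries, which may in part be technical.

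GABA, the main inhibitory transmitter of the brain, is made from glutamate by glutamate decarboxylase. Gad1 encodes the isoform GAD67, found throughout the neuron, and Gad2 encodes GAD65, concentrated at nerve terminals. Slc32a1 encodes VGAT, which loads GABA and glycine into synaptic vesicles. These genes mark inhibitory neurons, which are abundant in the superficial colliculus. Slc12a5 encodes KCC2, which carries chloride out of neurons of most kinds, inhibitory or not, and so makes the current through GABA-A receptors hyperpolarising. KCC2 is known to rise during postnatal development.

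The RefSeq promoter windows of the 4 genes are given as a description, and no link between these sequences and the RNA levels was tested. As deposited, batch C lay lower than A and B for Gad1 and higher for Gad2, which encode paralogous enzymes. The log2 shift of Gad1 was -0.24, close to the median of -0.21 over all tested IDs. For Gad2 the limma adjusted p between batches was 0.15. Slc32a1 and Slc12a5 had the highest correlation of the members over the libraries. Each window has 300 bases, 250 before and 50 after an annotated start site, on build GRCr8 and on the + strand. They lie at chr3:75777202-75777501 for Gad1, chr17:89671468-89671767 for Gad2, chr3:167686995-167687294 for Slc32a1 and chr3:174115583-174115882 for Slc12a5. All 4 symbols had a window. Capitals mark matches, on either strand, to 3 short motifs: the TATA box as TATAAA, the GC box as GGGCGG and the CAAT box as CCAAT. No matches overlapped.
Gad1: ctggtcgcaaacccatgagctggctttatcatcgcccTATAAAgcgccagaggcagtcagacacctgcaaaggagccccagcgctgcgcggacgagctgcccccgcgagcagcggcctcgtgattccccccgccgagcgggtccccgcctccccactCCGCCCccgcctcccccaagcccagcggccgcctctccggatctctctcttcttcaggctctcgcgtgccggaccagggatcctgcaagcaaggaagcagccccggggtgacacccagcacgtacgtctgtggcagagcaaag
Gad2: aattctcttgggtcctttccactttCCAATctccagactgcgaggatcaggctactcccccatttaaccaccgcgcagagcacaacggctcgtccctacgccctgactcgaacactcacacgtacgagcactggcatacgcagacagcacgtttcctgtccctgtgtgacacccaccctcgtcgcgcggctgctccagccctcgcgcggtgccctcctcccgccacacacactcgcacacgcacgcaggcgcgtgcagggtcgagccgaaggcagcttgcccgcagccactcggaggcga
Slc32a1: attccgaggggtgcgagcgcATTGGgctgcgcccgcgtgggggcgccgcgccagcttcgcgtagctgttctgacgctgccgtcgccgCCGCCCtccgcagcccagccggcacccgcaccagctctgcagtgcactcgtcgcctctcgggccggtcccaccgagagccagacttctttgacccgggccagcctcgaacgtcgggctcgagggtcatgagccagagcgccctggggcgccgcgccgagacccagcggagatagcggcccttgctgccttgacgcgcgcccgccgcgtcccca
Slc12a5: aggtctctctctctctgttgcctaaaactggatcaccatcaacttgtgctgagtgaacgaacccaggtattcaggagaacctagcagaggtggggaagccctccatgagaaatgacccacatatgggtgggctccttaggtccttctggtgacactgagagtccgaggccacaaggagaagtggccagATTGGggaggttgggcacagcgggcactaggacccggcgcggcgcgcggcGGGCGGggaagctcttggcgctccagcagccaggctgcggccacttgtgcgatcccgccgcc

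TATAAA was present in the Gad1 window alone among the 4, and in 14.2% of 33469 RefSeq windows of the same length. It lies 213 bases before the start site used here. The RefSeq entry of Gad1 itself begins 192 bases before that site, so the window was not placed by the most upstream start. TATAAA thus lies much nearer to the beginning of the entry than to the site used. GGGCGG was present in the windows of Gad1, Slc32a1 and Slc12a5 and in 33.1% of all windows. CCAAT was present in those of Gad2, Slc32a1 and Slc12a5 and in 37.5% of all windows. The windows were rich in G and C, at 67.7% for Gad1, 63.7% for Gad2, 73.7% for Slc32a1 and 61.3% for Slc12a5, against a median of 51.7% over all windows. A match describes the letters in these windows and does not show that a factor binds there.

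All 4 genes were abundant. Among the 26402 IDs of a library, Gad1 ranked between 206 and 259 by FPKM, Gad2 between 227 and 417, Slc12a5 between 365 and 440 and Slc32a1 between 484 and 884. The authors' deposited table gave mean normalized counts of 12194 for Gad1, 6562 for Gad2, 7277 for Slc32a1 and 13806 for Slc12a5. Counts are not divided by transcript length, so only FPKM is used below to set 1 gene against another. The sequencing depth behind these values is unknown, since FPKM carries no read totals. The tissue is a mixture of cells, and fewer inhibitory neurons cannot be told apart from less of these RNAs per neuron.

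The order of the levels was stable at both ends. Gad1 was the highest and Slc32a1 the lowest of the 4 in all 6 libraries, with means of 148 ± 13.0 and 72.5 ± 18.3 FPKM (SD over 6 libraries). Gad2 at 114 ± 7.07 FPKM and Slc12a5 at 99.4 ± 15.1 FPKM lay between them. These neighbours did not differ beyond their spread: the log2 ratio of Gad2 to Slc12a5 was 0.21 ± 0.31 (SD over 6 libraries), with Gad2 above Slc12a5 in 4 of 6. The log2 ratio of Gad1 to Gad2 was 0.37 ± 0.22 and was above 0 in 6 of 6 libraries, although it came down to 0.09 in the open batch C library. The log2 ratio of Slc32a1 to Slc12a5 was -0.48 ± 0.18 and was below 0 in every library.

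**Figure D1:**
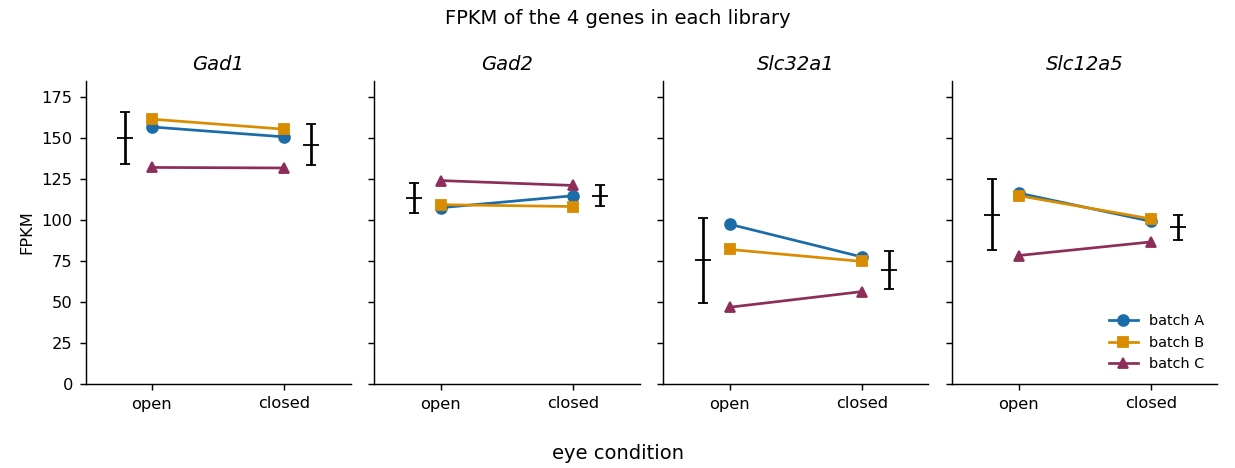
FPKM (vertical axis, from 0) of each gene with open and closed eyes. Lines join the 2 libraries of a batch and black bars give each group's mean ± SD (n = 3). The batch C libraries are lowest for Gad1, Slc32a1 and Slc12a5 and highest for Gad2, and the open and closed groups overlap for every gene.

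For the enzymes that make GABA, the closed and open group means lay close together. Gad1 stood at 151, 156 and 132 FPKM in the closed libraries of batches A, B and C and at 157, 162 and 132 FPKM in the open libraries. The closed library was the lower one in each batch, by 3.87%, 3.8% and 0.244%, and the groups overlapped. A single direction in all 3 batches was seen for 27.9% of tested IDs, and Gad1 was the 1 member with it. It was not kept when library medians were equalised, where the closed-minus-open log2 difference was 0.0062 in batch A, 0.0033 in B and -0.028 in C. On that scale 0 of the 4 members kept a single direction, as against 27.7% of tested IDs. The mean FPKM was 146 ± 12.5 with closed and 150.3 ± 15.8 with open eyes (SD, n = 3 per group).

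Gad2 stood at 115, 108 and 121 FPKM in the closed libraries of batches A, B and C and at 108, 109 and 124 FPKM in the open libraries. Closed was higher than open in batch A and lower in batches B and C, and the groups overlapped. The mean FPKM was 115 ± 6.44 with closed and 114 ± 9.08 with open eyes (SD, n = 3 per group). In FPKM as deposited, Gad2 had a coefficient of variation of 6.18% over the 6 libraries, against 8.76% for Gad1, 15.2% for Slc12a5 and 25.2% for Slc32a1. This order depended on the scaling: with library medians equalised, the SD of the log2 values was 0.034 for Gad1, 0.12 for Slc12a5, 0.19 for Gad2 and 0.28 for Slc32a1.

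Slc32a1, the vesicular transporter, varied most. It stood at 77.5, 74.8 and 56.4 FPKM in the closed libraries of batches A, B and C and at 97.5, 82.1 and 46.8 FPKM in the open libraries. The closed value was 20.5% lower than the open value in batch A and 8.92% lower in batch B, but 20.4% higher in batch C. The open libraries held both the highest and the lowest of the 6 values, which differed 2.08-fold. The mean FPKM was 69.6 ± 11.5 with closed and 75.5 ± 26.0 with open eyes (SD, n = 3 per group).

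Slc12a5, the chloride extruder, followed the same order of signs. It stood at 99.3, 101 and 86.7 FPKM in the closed libraries of batches A, B and C and at 117, 115 and 78.4 FPKM in the open libraries. The closed value was 14.8% lower in batch A and 12.4% lower in batch B, and 10.6% higher in batch C. As for Slc32a1, the 3 closed values lay inside the range of the open ones. The mean FPKM was 95.6 ± 7.71 with closed and 103 ± 21.6 with open eyes (SD, n = 3 per group).

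No member passed the threshold when closed and open eyes were compared. The test was limma on log2(FPKM + 0.5) over 12351 IDs, at a Benjamini-Hochberg adjusted p under 0.05, and it called 0% of IDs without regard to batch and 0.0081% (1 ID, no member) with the batch as a block. At an unadjusted p under 0.05 it took 0.542% of IDs without and 6.32% with the block, again no member. Without the block, differences between batches stay in the residual spread, so p-values of that fit run high where batches differ. In the authors' deposited table, which called 0.0344% of 20347 IDs, each of the 4 had an adjusted p of 0.99992. Groups that do not overlap were seen for 3.02% of tested IDs and for 0 of the 4 members.

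The closed-minus-open log2 difference of Gad1 was -0.039 (limma SE 0.15, 0.059 with the block), with unadjusted p of 0.81 and 0.53. Gad2 differed by 0.015 (SE 0.14 and 0.061), with unadjusted limma p of 0.92 and 0.81. Slc32a1 differed by -0.066 (SE 0.28 and 0.11), with unadjusted limma p of 0.82 and 0.57. The largest of the 4 was -0.092 for Slc12a5 (SE 0.19 and 0.081), with unadjusted limma p of 0.64 and 0.29. The median over all tested IDs was -0.034, which is close to the value of Gad1. Adjusted limma p-values were 0.99997 for each gene without the block and between 0.84 and 0.97 with it.

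In the blocked fit, the closed-to-open ratio had a 95% interval from 0.887 to 1.07 for Gad1 and from 0.918 to 1.11 for Gad2. It ran from 0.796 to 1.15 for Slc32a1 and from 0.825 to 1.07 for Slc12a5. Without the block the intervals were wider, from 0.761 to 1.25 for Gad1, 0.809 to 1.26 for Gad2, 0.615 to 1.48 for Slc32a1 and 0.694 to 1.27 for Slc12a5. The exact two-sided permutation p of a single gene was 0.5 for Gad1, 0.9 for Gad2, 0.8 for Slc32a1 and 0.6 for Slc12a5, where 3 against 3 libraries allow no p under 0.1. Paired by batch, the exact permutation p was 0.25, 1, 0.75 and 0.5, where 3 pairs allow no p under 0.25.

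**Figure D2:**
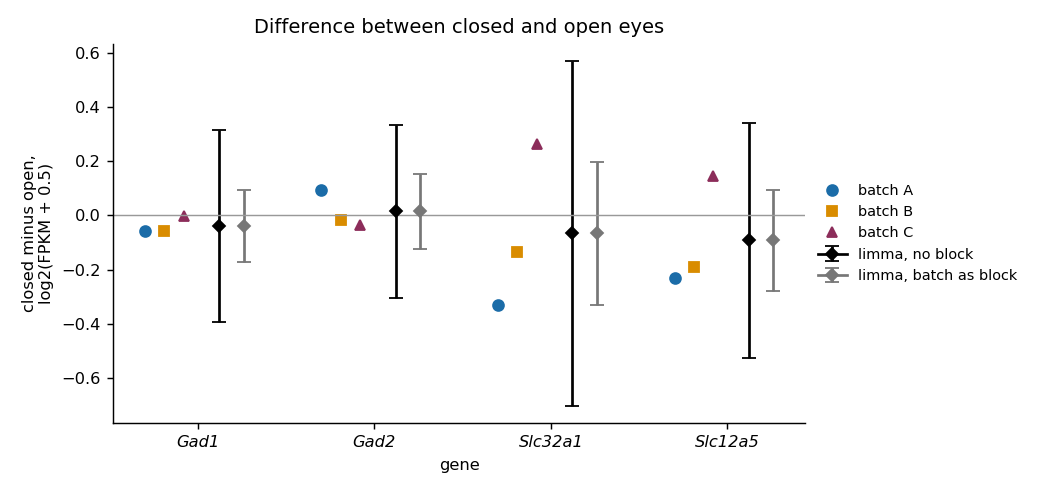
Closed-minus-open difference on the log2(FPKM + 0.5) scale (vertical axis) for each gene. Coloured points are the 3 batches, and diamonds are limma estimates with 95% intervals, black without and grey with the batch as a block. All 8 intervals hold 0, and for Slc32a1 and Slc12a5 batches A and B lie below 0 and batch C above it.

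The authors' deposited table, whose folds were turned here to closed over open, gave log2 folds of 0.048 for Gad1, 0.049 for Gad2, -0.061 for Slc32a1 and -0.070 for Slc12a5. Its unadjusted p-values were 0.454, 0.464, 0.480 and 0.341. The deposited fold of Gad1 has the opposite sign to its FPKM difference, and neither passed a test. For the other genes the signs were alike. The 2 tables rest on the same RNA, so this is no second measurement.

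Slc32a1 and Slc12a5 were lower with closed eyes in batches A and B and higher in batch C. Counting this split and its reverse together, 34.3% of tested IDs had 1 direction in A and B and the other in C. In that order of batches, the log2 difference of Slc32a1 was -0.33, -0.13 and 0.27, and that of Slc12a5 was -0.23, -0.19 and 0.14. With library medians equalised, batches A and B had 1 sign and C the other for all 4 members, as for 31.1% of tested IDs. The value of both transporters moved most with batch C. When both batch C libraries were left out, the log2 difference was -0.23 for Slc32a1 and -0.21 for Slc12a5 in limma with the block, at unadjusted p of 0.024 and 0.013 but an adjusted p of 0.37 for each. In that fit 13.1% of all tested IDs had an unadjusted p under 0.05. Leaving out the open library of batch C alone gave -0.38 and -0.28 in limma without the block, with an adjusted p of 0.80 for each. Whether the eye difference itself differed between batches could not be tested, since a batch has 1 library of each kind.

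Batch separated the libraries more than eye condition did for every member. Of the squared deviations of log2 values, batch accounted for 96.2% for Gad1, 86.6% for Gad2, 86.6% for Slc32a1 and 77.9% for Slc12a5, against a median of 81.2% over all tested IDs. Eye condition took 2.70%, 0.847%, 0.891% and 5.07%, against a median of 4.37%. Their degrees of freedom alone would give batch 40% and eye condition 20%. Gad1, Slc32a1 and Slc12a5 differed between batches in the limma F test with eye condition in the fit, with adjusted p of 0.030, 0.0094 and 0.019. For Gad2 the adjusted p was 0.15. That makes 3 of 4 members, where 49.7% of all tested IDs passed.

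The difference lay in batch C, and the direction was not the same for the 2 decarboxylases. Both batch C libraries were below all 4 others for Gad1, Slc32a1 and Slc12a5, as for 51.7% of tested IDs, and above all 4 others for Gad2, as for 7.17%. The mean of batch C was 84.5% of the mean of A and B for Gad1, 62.2% for Slc32a1 and 76.5% for Slc12a5, but 111% for Gad2. The typical value in batch C was lower, though not that of every ID. Summed FPKM was 332862 and 331008 in its closed and open libraries and between 385309 and 398847 in the other 4, and the median tested ID was lower by 0.21 on the log2 scale.

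Which members differed between batches depended on the scaling. With library medians equalised, the log2 shift of batch C from A and B became -0.049 for Gad1, 0.35 for Gad2, -0.49 for Slc32a1 and -0.19 for Slc12a5. The values as deposited had been -0.24, 0.16, -0.68 and -0.38. After this scaling, the limma test between batches gave adjusted p of 0.021 for Gad2 and 0.028 for Slc32a1, which passed. Gad1 at 0.60 and Slc12a5 at 0.18 did not pass, and 30.3% of tested IDs did. Slc32a1 passed as deposited and with median or upper-quartile scaling, and had an adjusted p of 0.058 with quantile scaling. The sign of the shift was the same on both scales for all 4 genes. On the median scale, both batch C libraries were below the others for 3 of 4 members, as for 24.6% of tested IDs. Both were above the others for 1 of 4, Gad2, as for 22.1% of tested IDs.

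**Figure D3:**
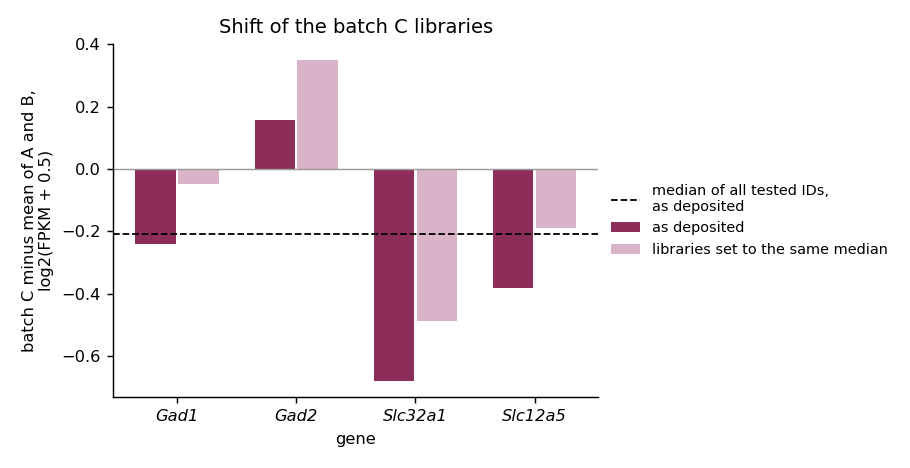
Shift of batch C from the mean of batches A and B on the log2(FPKM + 0.5) scale (vertical axis), for FPKM as deposited (dark bars) and with library medians equalised (light bars). The dashed line is the median of all tested IDs as deposited, at -0.21. Gad2 lies above 0 and Slc32a1 is the lowest on both scales, while the shift of Gad1 nearly closes after scaling.

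Ratios between the genes within a library do not change when the FPKM of a library is multiplied by 1 factor, unlike with quantile scaling. The ratio of Gad1 to Gad2 was 1.31, 1.44 and 1.09 in the closed libraries of batches A, B and C and 1.46, 1.48 and 1.06 in the open libraries. Both batch C libraries were thus near parity of the 2 decarboxylase transcripts per length, while the other 4 had more Gad1. The ratio of Gad2 to Slc32a1 was 1.48, 1.45 and 2.15 in closed and 1.10, 1.33 and 2.65 in open libraries, again with batch C apart from the rest.

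The ratio of Gad1 to Slc12a5 was the least variable, between 1.35 and 1.69 over the 6 libraries. In the closed libraries it was 1.52, 1.54 and 1.52, and in the open libraries 1.35, 1.41 and 1.69. Its log2 SD was 0.013 within the closed and 0.17 within the open group (n = 3 each), and the difference of these spreads was not tested. The ratio of Gad2 to Slc12a5 was above 1 in every closed library, at 1.16, 1.08 and 1.4. In open libraries it was 0.923, 0.952 and 1.58.

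The spread within the open group exceeded the closed-minus-open difference for each of the 6 ratios. These differences of log2 ratios lay between -0.054 for Gad1 to Gad2 and 0.11 for Gad2 to Slc12a5. Exact two-sided permutation p-values, which cannot go below 0.1 here, were between 0.7 and 0.9, and 0.9 for each after adjustment over the 6 ratios. Paired by batch, the exact permutation p was 0.5 or 0.75, and 0.75 for each after adjustment. For Gad2 to Slc32a1 the log2 difference was 0.43 in batch A, 0.12 in batch B and -0.30 in batch C.

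**Figure D4:**
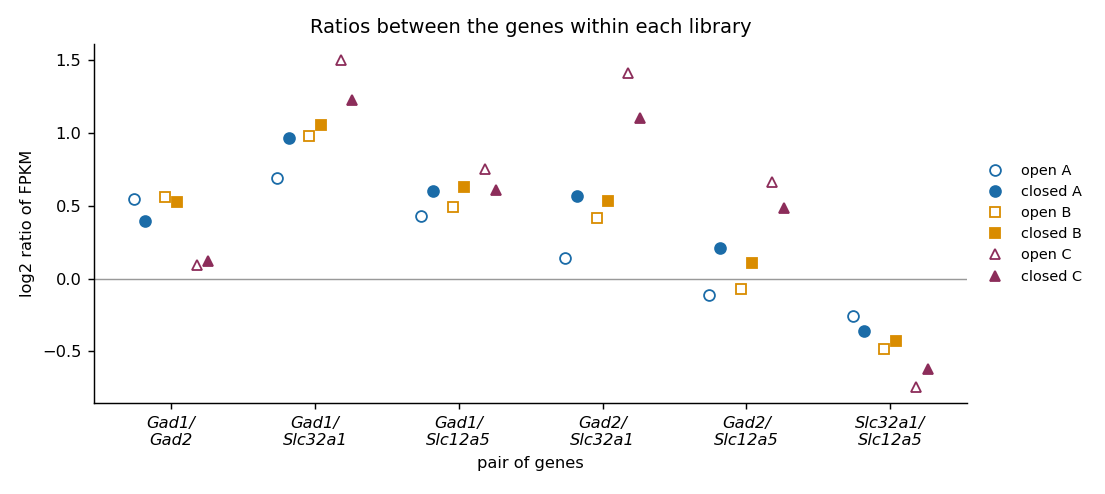
Log2 ratio of FPKM (vertical axis) for each pair of genes in each library, with open symbols for open eyes and filled symbols for closed eyes. The batch C libraries are lowest for Gad1 to Gad2 and highest for Gad2 to Slc32a1, and open and closed libraries overlap for every pair.

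The similarity of the members was described over the 6 libraries. The Pearson correlation of log2 values as deposited was 0.97 for Slc32a1 with Slc12a5, 0.94 for Gad1 with Slc12a5 and 0.91 for Gad1 with Slc32a1. Gad2 ran opposite to the others, at -0.95 with Gad1, -0.93 with Slc32a1 and -0.93 with Slc12a5. With library medians equalised, the correlation of Slc32a1 with Slc12a5 was 0.93, but that of Gad1 was only 0.48 with Slc12a5, 0.42 with Slc32a1 and -0.70 with Gad2. Gad2 then stood at -0.94 with Slc32a1 and -0.92 with Slc12a5. Batch C stands apart in these values and the libraries share batches, so the coefficients are a description of 6 points and were not tested. Many other IDs had a like pattern as deposited. Of the 12350 other tested IDs, 2.43% were more like Slc12a5 than Slc32a1 was, and 4.65% were more like Slc32a1 than Slc12a5 was. For Gad1, 14.8% were more like it than Slc12a5 was. For Gad2, 93.1% were more like it than Gad1 was, 87.1% than Slc32a1 and 88.7% than Slc12a5. The remaining IDs ran at least as opposite to Gad2 as that member did. The IDs most like each member are not named, because no table paired them with symbols.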

How the data were processed

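Per the labels, the authors deposited FPKM by Ensembl gene ID for 6 libraries and 1 table of their DESeq2 comparison. That deposited table holds a signal column, taken from its scale to be a mean normalized count, a log2 fold, a p-value and an adjusted p-value. The submitters' processing notes name STAR 2.3.14z, featureCounts 1.4.4, Cufflinks 2.1.1, DESeq2 1.4.1 and build rn5, without the role of each. The deposited fold is open over closed, since it ran against the FPKM difference across IDs (Spearman -0.75), and its sign was turned.

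Because FPKM is scaled by length and library total, low values were searched for steps of 1 read. Among 241 low IDs, the commonest ratio bin of 0.5% width held 1.24% to 3.32% of them between pairs of libraries. No expected share for smooth values was computed, so such steps were neither shown nor excluded. No depth was recovered, so no counting interval is given and no count model was fitted.

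limma 3.58.1 in R 4.3.3 (statmod 1.5.0) was fitted to log2(FPKM + 0.5), with trend and robust moderation, where an ID's mean was 1 FPKM or more. p-values were Benjamini-Hochberg adjusted over all tested IDs. Differences on this scale understate changes of low IDs. Batch letters are labels common to both groups and therefore pair the libraries. Around the group means, libraries of 1 batch correlated at 0.361 to 0.525 and those of different batches at -0.375 to -0.051. Because values were centred within each group, positive correlations within batches push those between batches to be negative. The negative values are therefore no separate evidence for the pairing. Single values and the 6 ratios were compared with exact permutation tests. Alternatives were pseudocounts of 0.1 and 1, other filters and scalings, plain moderation, the block, and each library or batch left out. The similarity and spread of the members with equalised medians were added after seeing the data.

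The named genes are the 4 members. They, the lists and the motifs were chosen with earlier results of these data known. Planned lists of GABA receptor, transporter and cell type marker genes were not tested, and the tissue was not checked against markers, because 0 of 47357 RefSeq rows hold an Ensembl ID. Promoters were matched by symbol.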

Additional observations from a re-analysis of the deposited data

How the results depend on the processing

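No member was called between closed and open eyes in any of 29 alternative settings, whose adjusted limma p-values ran from 0.37 to 1. Directions were not stable, as differences this small allow. Closed-minus-open log2 differences with 1 library or batch left out ran from -0.13 to 0.033 for Gad1, -0.025 to 0.079 for Gad2, -0.38 to 0.15 for Slc32a1 and -0.28 to 0.0062 for Slc12a5. With quantile scaling Gad1 reached 0.0030, with and without the replicate block. In the paired fit with the replicate block, leaving out batch A gave -0.025 for Gad2 and 0.066 for Slc32a1. The block changed no call of a member. Log2 ratios with 1 library left out differed by -0.21 to 0.058 for Gad1 to Gad2, -0.16 to 0.25 for Gad1 to Slc32a1, -0.011 to 0.15 for Gad1 to Slc12a5, -0.18 to 0.46 for Gad2 to Slc32a1, -0.030 to 0.36 for Gad2 to Slc12a5 and -0.098 to 0.15 for Slc32a1 to Slc12a5.

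Between batches, 3 members passed as reported and 1 passed with IDs of a mean above 0 FPKM, with quantile scaling and with plain moderation. Adjusted limma p-values for Gad1 were 0.055 with IDs above 0 FPKM, 0.096 with quantile, 0.69 with upper-quartile and 0.60 with median scaling, and 0.062 with plain moderation. In the same order they were 0.069, 0.78, 0.26, 0.18 and 0.064 for Slc12a5. Gad2 passed with quantile (0.011), upper-quartile (0.015) and median scaling (0.021), and Slc32a1 did not with quantile scaling (0.058). The cause was not tested.

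Over all tested IDs, calls between closed and open eyes numbered 0 without and 1 with the replicate block, 1 in the paired fit with a pseudocount of 0.1 or 1, 0 to 5 with 1 library or batch left out, and 6, 16 and 2 in the paired fit without batch A, B and C. The number of libraries, 3 per group, limits what could be detected.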
